A study of Camellia sinensis and Camellia sinensis var. assamica with 18 samples.

Results

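Tea plants lose part of what cold acclimation has built up when they are warmed again, and this de-acclimation was followed in leaves of a pair of cultivars, SCZ (Shuchazao, described by the study as cold-tolerant) and YH9 (Yinghong 9, of the assamica variety, described as cold-sensitive). The results below concern the interaction of cultivar and rewarming, the rewarming change of SCZ (SCZ_DA over SCZ_CA) minus that of YH9 (YH9_DA over YH9_CA), each on the log2 scale. A positive interaction means that a locus changed more upward, or less downward, in SCZ than in YH9. All loci with at least 1 FPKM (a fragment count scaled to locus length and library size) in at least 3 of the 18 libraries were included, which gave 29019 of the 41021 loci in the deposited table. During cold acclimation, plants in general raise CBF/DREB transcription factors, protective LEA proteins and dehydrins, soluble sugars and membrane lipid desaturation, and hold back growth and photosynthesis. Rewarming reverses much of this within days, and how far and how fast it does so differs between species and cultivars.

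All plants were tissue culture seedlings of the same height class, propagated from cuttings, so that each cultivar stands for 1 genotype. Non-acclimated leaves (SCZ_NA and YH9_NA) came from day 0 in a regime of 25 °C (light) and 20 °C (dark), and they entered the estimate of the spread but not the interaction. Cold-acclimated leaves (SCZ_CA and YH9_CA) were taken on day 14, after 7 days of 10 °C (light) and 4 °C (dark) and another 7 days of 4 °C (light) and 0 °C (dark). De-acclimated leaves (SCZ_DA and YH9_DA) were taken on day 21, after 7 further days of 25 °C (light) and 20 °C (dark). Each group had 3 libraries that the study calls biological replicates, each from a few leaves. Temperature stage and sampling day cannot be told apart, the hour of sampling is not given in the sources used here, and the p-values measure only the spread between these samples.

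The 12 libraries compared held 47291392 to 78305612 estimated counts. Genes for light harvesting and the photosystems, the mark of green leaf tissue, summed to 13900 to 22900 FPKM in the 6 DA libraries and 2690 to 10900 FPKM in the 6 CA libraries, whereas the 2 root marker loci tested summed to at most 28.2 FPKM. The lowest of these photosystem sums belonged to SCZ_CA replicate 2, and the other SCZ_CA libraries lay at 8530 and 10900 FPKM. The biological coefficient of variation was 0.473 in SCZ_DA and 0.606 in SCZ_CA, against 0.287 in YH9_DA and 0.371 in YH9_CA, so that SCZ libraries scattered more. Without SCZ_CA replicate 2, the interaction had 284 positive and 313 negative calls, including 176 of the 231 and 202 of the 268 described next.

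Rewarming changed many loci in both cultivars. At an adjusted p under 0.05 by edgeR's quasi-likelihood test and at least a 2-fold change, 4528 loci were higher (15.6%) and 3929 lower (13.5%) in SCZ_DA than in SCZ_CA. In YH9_DA, 3789 loci were higher (13.1%) and 3031 lower (10.4%) than in YH9_CA. Both changes shared no library, and across all loci their Pearson correlation was 0.534, with the same sign at 74.5%. Loci are not independent replicates, so this is a description. Both cultivars had 2209 loci up and 1951 down, 33 were up in SCZ and down in YH9, and 49 were down in SCZ and up in YH9.

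The interaction itself was called at 499 loci, 1.72% of those tested. Of these, 231 were positive (0.796%) and 268 negative (0.924%), and 4796 loci (16.5%) had an unadjusted p under 0.05. The called differences had a median size of 2.57 on the log2 scale and a smallest size of 1.03, beside a median standard error of 0.55 over all loci. A call in one cultivar and not in the other seldom came with a called difference between them. Among the 6793 loci called in only 1 cultivar, the interaction was called at 347.

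**Figure D1:**
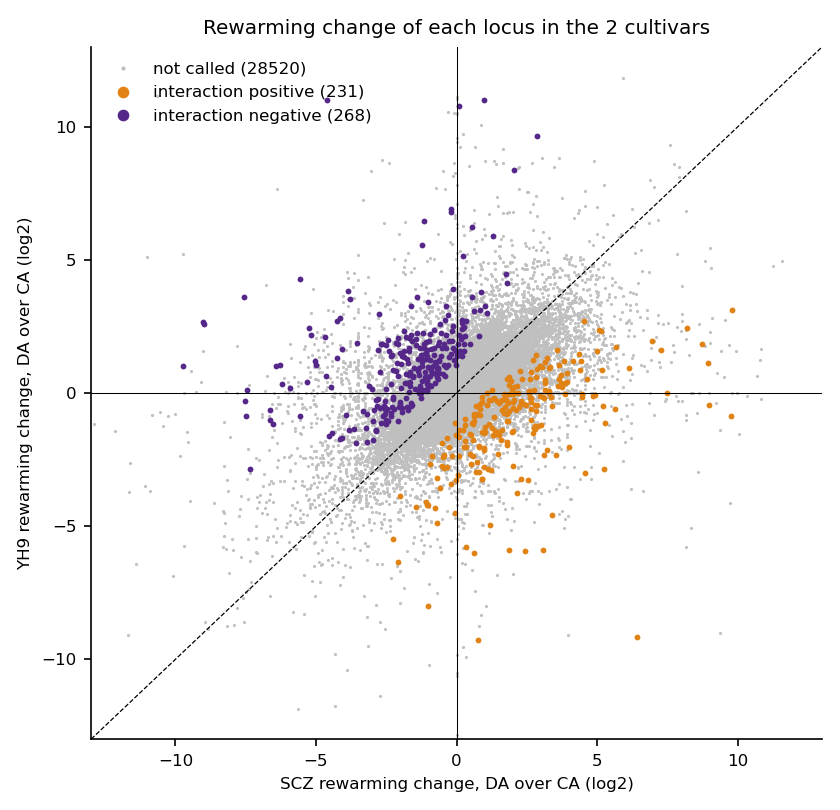
Rewarming change (DA over CA, log2) of each of the loci tested in SCZ on the horizontal axis and YH9 on the vertical axis, with the dashed line marking equal change and 5 loci beyond 13 on an axis not drawn. The 231 positive calls (orange) lie below the line and the 268 negative calls (purple) above it, most of them near an axis or in the quadrants of opposite sign, while the grey cloud of 28520 loci without a call follows the line.

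The calls took several forms. Of the 231, 103 rose on rewarming in SCZ and were not called in YH9, 62 fell in YH9 and were not called in SCZ, 32 rose in SCZ and fell in YH9, and 17 rose in both by unequal amounts. Another 6 fell in both, and 11 passed neither test of 1 cultivar. Of the 268 negative calls, 104 fell in SCZ and were not called in YH9, 78 rose in YH9 and were not called in SCZ, 43 fell in SCZ and rose in YH9, 20 fell in both and 6 rose in both. The remaining 17 were called in neither cultivar alone. The changes had opposite signs, called or not, at 143 positive and 172 negative loci (61.9% and 64.2%), beside 23.3% of the loci without a call. All these counts use the libraries that also gave the interaction and describe its form, not a separate test.

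The same loci can be read as cultivar differences before and after rewarming. In all, 3304 loci were higher (11.4%) and 3661 lower (12.6%) in SCZ_DA than in YH9_DA, and 3726 were higher (12.8%) and 4186 lower (14.4%) in SCZ_CA than in YH9_CA. Among the positive interactions, 100 loci were lower in SCZ_CA than in YH9_CA and not called after rewarming, and 60 were higher in SCZ_DA than in YH9_DA and not called in the cold. A further 18 turned round, lower in SCZ in the cold and higher in SCZ after rewarming. Among the negative interactions, 116 were higher in SCZ_CA and not called after rewarming, 62 were lower in SCZ_DA and not called in the cold, and 13 turned round. In both directions, differences found only in the cold therefore outnumbered those found only after rewarming, by count and without a test. Over all loci tested, cultivar differences were also called more often in the cold (7912) than after rewarming (6965). The cold difference was the larger one at 147 of the 231 positive and 149 of the 268 negative calls. The same held at 15105 of the 28520 loci without a call, a share close to that of the negative calls. No excess over this background is drawn for the negative calls. Reads were mapped to a published tea genome whose gene identifiers are those of Shuchazao, the cultivar SCZ itself. A bias of that mapping cannot be told apart from a cultivar difference at 1 stage, and one of equal log2 size at both stages cancels in the interaction.

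Some of the strongest positive interactions were loci that were low in SCZ only in the cold and regained their level on rewarming. A polyol transporter (CSS012219), one of the carriers that move sugar alcohols and hexoses across membranes, had 77.8, 65 and 82.1 FPKM in SCZ_DA, against 14.9, 5.01 and 9.03 FPKM in SCZ_CA. In YH9 it moved the other way, with 89.9, 90.0 and 78.6 FPKM in YH9_DA, against 201, 209 and 190 FPKM in YH9_CA. Neither cultivar's stages overlapped, and the changes were 2.78 in SCZ and -1.37 in YH9. The interaction was 4.15, SE 0.53, adjusted p = 0.00234 by edgeR, and the call held in all 32 alternatives. Before acclimation the locus had 77.5, 37.6 and 69.2 FPKM in SCZ_NA and 113, 88.4 and 80.6 FPKM in YH9_NA, so that DA and NA libraries overlapped in both cultivars. The locus NAC35-like (CSS005530), a member of the plant-specific NAC transcription factors, had 7.28, 28 and 24.6 FPKM in SCZ_DA, against 0.587, 0.484 and 0.345 FPKM in SCZ_CA. It had 16.1, 10.1 and 15.3 FPKM in YH9_DA, against 10.7, 30.9 and 10.5 FPKM in YH9_CA, where the stages overlapped. Its interaction was 5.70, SE 0.78, adjusted p = 0.00324 by edgeR, and the call was lost with limma voom weights per group, and the difference ran between 3.80 and 6.09 over the alternatives.

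A nitrate and peptide transporter family protein, NRT1/PTR FAMILY 3.1 (CSS052741), had 8.42, 12.8 and 12.4 FPKM in SCZ_DA, against 2.88, 1.22 and 1.29 FPKM in SCZ_CA. It had 20.2, 24.2 and 24.5 FPKM in YH9_DA, against 29.6, 30.7 and 24.4 FPKM in YH9_CA, again with overlap, and its interaction was 2.92, SE 0.41, adjusted p = 0.00334 by edgeR. The call held in all 32 alternatives. Germin-like proteins, cell-wall glycoproteins of the cupin fold, included 4 called loci, all positive, among 23 tested (17.4%, beside 1.72% of all loci), a group singled out after its values were seen. The most abundant of the 4 in SCZ_DA (CSS001294) had 473, 607 and 370 FPKM in SCZ_DA, against 56.5, 40.0 and 48.9 FPKM in SCZ_CA. It had 210, 118 and 136 FPKM in YH9_DA, against 109, 181 and 187 FPKM in YH9_CA. Its interaction was 3.31, SE 0.47, adjusted p = 0.00376 by edgeR. Its neighbours in pattern, CSS019483 (3.22, adjusted p = 0.00547 by edgeR) and CSS002110 (2.65, adjusted p = 0.0112 by edgeR), also rose in SCZ and were not called in YH9. All 3 calls held in all 32 alternatives, but germin-like genes are a multigene family, and reads shared between near-identical copies could not be told apart. The remaining one, a germin-like protein of subfamily 1 (CSS046823), was low in YH9 at both stages. It had 254, 119 and 105 FPKM in SCZ_DA, against 1.55, 1.1 and 3.15 FPKM in SCZ_CA. It had 2.01, 1.33 and 1.58 FPKM in YH9_DA, against 0.984, 0.437 and 0.879 FPKM in YH9_CA. Its interaction was 5.17, SE 1.23, adjusted p = 0.0468 by edgeR, and the call was lost in 14 of the 18 fits without 1 library (adjusted p = 0.0594 to 0.113) and in 5 of the 14 other alternatives.

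**Figure D2:**
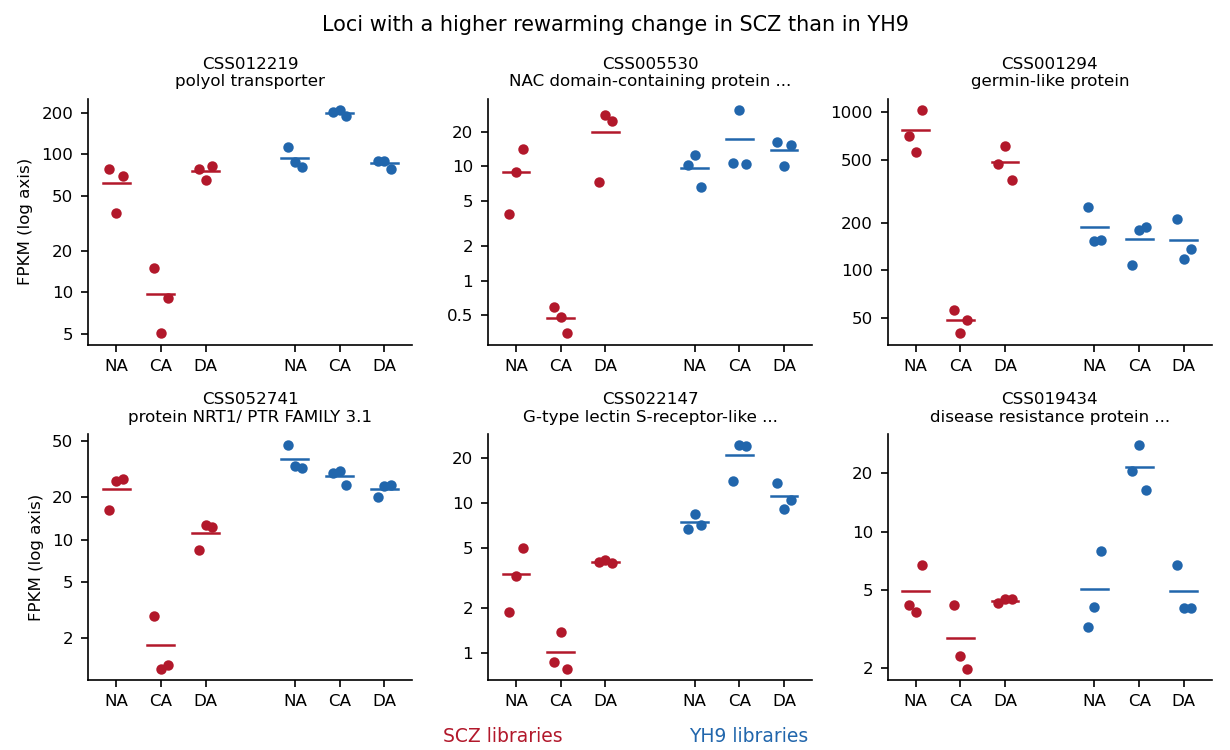
FPKM on a log axis in each library of 6 loci with a positive interaction, by stage (NA, CA, DA) for SCZ on the left (red) and YH9 on the right (blue), points being libraries and bars the mean of 3. The polyol transporter stood at 77.8, 65.0 and 82.1 FPKM in SCZ_DA and at 14.9, 5.01 and 9.03 in SCZ_CA, while the RPP13-like locus on the lower right passed the test in YH9 and not in SCZ.

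Other positive loci fell in YH9 on rewarming. A disease resistance protein of the RPP13-like type (CSS019434), an intracellular immune receptor, had 4.28, 4.49 and 4.5 FPKM in SCZ_DA, against 4.22, 2.3 and 1.98 FPKM in SCZ_CA. It had 6.78, 4.07 and 4.07 FPKM in YH9_DA, against 20.5, 27.7 and 16.4 FPKM in YH9_CA. The YH9 stages lay clear of each other, and the changes were 0.48 in SCZ and -2.27 in YH9. Its interaction was 2.75, SE 0.48, adjusted p = 0.0116 by edgeR, and the call held in all 32 alternatives. A receptor-like kinase with a G-type lectin domain (CSS022147) had 4.04, 4.17 and 4 FPKM in SCZ_DA, against 0.876, 1.39 and 0.784 FPKM in SCZ_CA. It had 13.7, 9.16 and 10.6 FPKM in YH9_DA, against 14.1, 24.4 and 24.2 FPKM in YH9_CA. It rose in SCZ and fell in YH9 without overlap in either (interaction 2.87, SE 0.40, adjusted p = 0.00334 by edgeR), and the call held in all 32 alternatives. The calcium-binding protein CML23 (CSS000763) had 21.2, 26.4 and 12 FPKM in SCZ_DA, against 17.6, 73.9 and 16.4 FPKM in SCZ_CA, and 11.3, 11.4 and 9.62 FPKM in YH9_DA, against 170, 209 and 156 FPKM in YH9_CA, so that only the YH9 stages were clear of each other. The interaction was 3.16, SE 0.64, adjusted p = 0.0237 by edgeR, and the call was lost without SCZ_DA replicate 2, YH9_CA replicates 1 or 2 or YH9_DA replicates 1, 2 or 3 (adjusted p = 0.0515 to 0.0646) and when only the libraries compared set the spread.

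A protein with a LOV domain (CSS018496), the light-sensing domain of several plant photoreceptors, had 0.0707, 0.026 and 0.412 FPKM in SCZ_DA, against 0.77, 0.594 and 0.609 FPKM in SCZ_CA. It had 0.744, 1.27 and 1.57 FPKM in YH9_DA, against 101, 83.2 and 79.3 FPKM in YH9_CA. It fell in both cultivars, and the interaction was 4.27, SE 0.88, adjusted p = 0.0256 by edgeR. Every SCZ library was under 1 FPKM, and the call was lost without SCZ_DA replicate 3, YH9_CA replicates 1 or 2 or YH9_DA replicates 1, 2 or 3 (adjusted p = 0.0507 to 0.114) and with limma voom weights per group, and the difference ran between 2.50 and 4.83 over the alternatives. The ABC transporter G family member 11 (CSS037808), whose Arabidopsis relative exports cuticular lipids, had 72.5, 145 and 17.4 FPKM in SCZ_DA, against 103, 20.2 and 87 FPKM in SCZ_CA. These libraries overlapped, whereas YH9 fell without overlap, with 4.31, 4.16 and 5.4 FPKM in YH9_DA, against 115, 95.6 and 74.3 FPKM in YH9_CA. Its interaction was 4.44, SE 0.99, adjusted p = 0.0374 by edgeR, and the call was lost in 8 of the 18 fits without 1 library (adjusted p = 0.0502 to 0.0997) and with the replicate block and when only the libraries compared set the spread. EXORDIUM (CSS009775), a brassinosteroid-induced wall protein in Arabidopsis, had 3.59, 24.2 and 17.4 FPKM in SCZ_DA, against 2.54, 7.69 and 9.88 FPKM in SCZ_CA. It had 11.5, 8.49 and 4.64 FPKM in YH9_DA, against 87.4, 56.9 and 60.6 FPKM in YH9_CA, so that YH9 fell without overlap. The interaction was 4.13, SE 0.91, adjusted p = 0.0345 by edgeR, and the call was lost in 9 of the 18 fits without 1 library (adjusted p = 0.0509 to 0.0926) and with the replicate block and when only the libraries compared set the spread.

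A transcription factor of the nitrate-responsive NLP group (NLP6-like, CSS025408) rose in SCZ and stayed under 1 FPKM in YH9. It had 13.8, 16.7 and 4.25 FPKM in SCZ_DA, against 0.214, 0.759 and 0.232 FPKM in SCZ_CA. It had 0.205, 0.208 and 0.139 FPKM in YH9_DA, against 0.138, 0.0918 and 0.108 FPKM in YH9_CA. Its interaction was 4.10, SE 0.73, adjusted p = 0.0131 by edgeR, and the call was lost with limma voom weights per group, and the difference ran between 2.92 and 4.89 over the alternatives. The UDP-glucosyltransferase 88A1 (CSS002986) rose in both cultivars by unequal amounts, with 12.2, 17.6 and 3.38 FPKM in SCZ_DA, against 0.203, 0.183 and 0.161 FPKM in SCZ_CA. It had 7.11, 4.97 and 7.81 FPKM in YH9_DA, against 3.16, 1.23 and 1.05 FPKM in YH9_CA. The interaction was 3.96, SE 0.75, adjusted p = 0.0177 by edgeR, and the call was lost without YH9_DA replicate 2 (adjusted p = 0.0572) and with limma on log2(FPKM + 1) and with limma voom weights per group, and the difference ran between 1.62 and 4.38 over the alternatives. Purple acid phosphatase 20 (CSS022273), of a family that releases phosphate, had 4.72, 9.99 and 55.6 FPKM in SCZ_DA, against 4.83, 1.58 and 2.27 FPKM in SCZ_CA. It had 35.4, 31.6 and 26.8 FPKM in YH9_DA, against 93.7, 52.7 and 52.2 FPKM in YH9_CA. One SCZ_DA library was far above the others, and the call (4.12, SE 0.95, adjusted p = 0.0414 by edgeR) was lost in 13 of the 18 fits without 1 library (adjusted p = 0.0506 to 0.105) and in 4 of the 14 other alternatives, and the difference ran between 2.38 and 4.60 over the alternatives.

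Among the negative loci named, the smallest p-value belonged to a WEE1-like protein kinase (CSS021988), of the family that holds back the cyclin-dependent kinases at entry into mitosis. It had 1.13, 0.593 and 0.727 FPKM in SCZ_DA, against 3.33, 3.84 and 3.23 FPKM in SCZ_CA. Its YH9 values were far higher and moved the other way, 18.3, 23.3 and 21.7 FPKM in YH9_DA, against 9.96, 10.3 and 10.7 FPKM in YH9_CA. None of these groups overlapped, the changes were -2.25 in SCZ and 0.88 in YH9, and the interaction was -3.14, SE 0.34, adjusted p = 0.0014 by edgeR. The call held in all 32 alternatives. E2FA (CSS013707), a transcription factor of the cell division cycle, had 0.16, 0.172 and 0.069 FPKM in SCZ_DA, against 0.936, 0.14 and 0.541 FPKM in SCZ_CA. It had 16.5, 15 and 11.6 FPKM in YH9_DA, against 2.23, 4.44 and 3.9 FPKM in YH9_CA. It was under 1 FPKM in every SCZ library, and before acclimation it had 0.247, 0.553 and 0.404 FPKM in SCZ_NA and 14.9, 18.9 and 12.9 FPKM in YH9_NA. Its interaction was -4.05, SE 0.70, adjusted p = 0.0111 by edgeR, and the call was lost with limma voom weights per group, and the difference ran between -4.48 and -2.20 over the alternatives. The wider list of cell division and histone genes had no call among 51 loci tested by edgeR's quasi-likelihood test. An unadjusted p under 0.05 was found at 7, beside 16.5% of all loci. DESeq2 called 3, beside 800 positive and 1004 negative calls over all 29019 loci.

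Sugar-transferring enzymes supplied several negative loci that held throughout. The glycosyltransferase CSS005827, 1 of several loci that carry this gene name in the table, had 12.8, 6.88 and 12.5 FPKM in SCZ_DA, against 37.9, 55.1 and 29.3 FPKM in SCZ_CA. It had 7, 4.97 and 5.1 FPKM in YH9_DA, against 1.51, 1.45 and 1.27 FPKM in YH9_CA. It fell in SCZ and rose in YH9 without overlap, with an interaction of -3.94, SE 0.44, adjusted p = 0.0014 by edgeR. Another glycosyltransferase (CSS026887) had 13, 5.22 and 7.33 FPKM in SCZ_DA, against 37.5, 85.5 and 24.3 FPKM in SCZ_CA. It had 57.6, 28.2 and 28.8 FPKM in YH9_DA, against 8.76, 10.5 and 9.35 FPKM in YH9_CA. Its interaction was -4.52, SE 0.69, adjusted p = 0.00625 by edgeR. The UDP-glycosyltransferase 89A2-like locus (CSS041987) had 6.06, 5.39 and 4.47 FPKM in SCZ_DA, against 13, 8.06 and 10.8 FPKM in SCZ_CA, and 4.71, 5.9 and 4.93 FPKM in YH9_DA, against 1.1, 0.799 and 1.01 FPKM in YH9_CA, with an interaction of -3.46, SE 0.41, adjusted p = 0.00154 by edgeR. In the cold SCZ was above YH9 at all 3, and the calls held in all 32 alternatives.

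Transporters were also among the negative loci. A Nodulin MtN21/EamA-like transporter (CSS046123), of a family that includes amino acid exporters, had 5.01, 5.54 and 3.23 FPKM in SCZ_DA, against 15.1, 25.6 and 23.4 FPKM in SCZ_CA. It had 9.55, 5.3 and 7.09 FPKM in YH9_DA, against 1.57, 2.5 and 2.49 FPKM in YH9_CA. Its interaction was -4.00, SE 0.70, adjusted p = 0.0119 by edgeR. The tonoplast monosaccharide transporter 1 (CSS030704), which loads hexoses into the vacuole, had 25.4, 20.8 and 18.2 FPKM in SCZ_DA, against 45.8, 50.1 and 46.4 FPKM in SCZ_CA. It had 14, 15.7 and 15.3 FPKM in YH9_DA, against 11.5, 12.7 and 12.1 FPKM in YH9_CA. SCZ fell without overlap and the YH9 change of 0.16 was not called, although the YH9 libraries did not overlap either. Its interaction was -1.49, SE 0.28, adjusted p = 0.0146 by edgeR, and both calls held in all 32 alternatives. An F-box protein with leucine-rich repeats (CSS008374), of the type that marks proteins for degradation, had 1.71, 1.24 and 1.43 FPKM in SCZ_DA, against 6.64, 3.89 and 3.63 FPKM in SCZ_CA. It had 11.4, 12.6 and 12.2 FPKM in YH9_DA, against 8.75, 7.54 and 8.64 FPKM in YH9_CA. Its interaction was -2.24, SE 0.30, adjusted p = 0.00291 by edgeR, and the call held in all 32 alternatives.

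**Figure D3:**
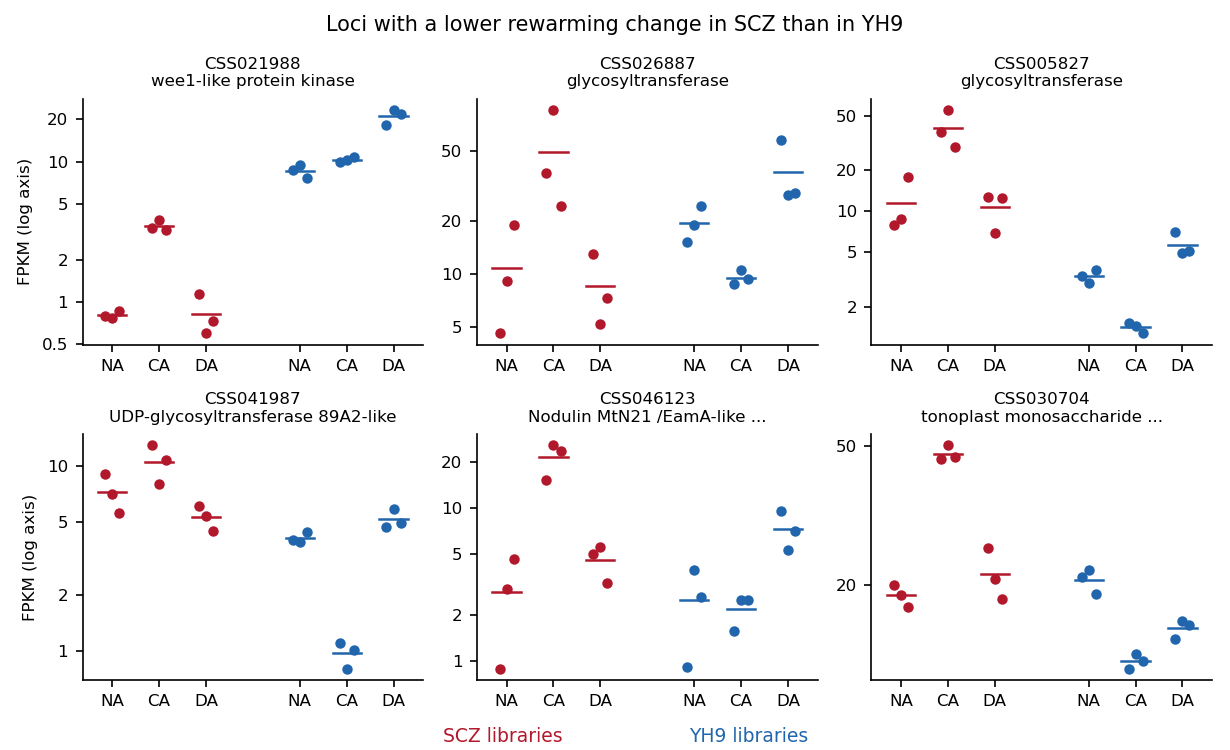
FPKM on a log axis in each library of 6 loci with a negative interaction, by stage (NA, CA, DA) for SCZ on the left (red) and YH9 on the right (blue), points being libraries and bars the mean of 3. The tonoplast monosaccharide transporter stood at 25.4, 20.8 and 18.2 FPKM in SCZ_DA and at 45.8, 50.1 and 46.4 in SCZ_CA, while the WEE1-like kinase rose in YH9 and fell in SCZ.

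Further negative loci were low in SCZ after rewarming. A metallothionein-like protein (CSS008737), of the small cysteine-rich metal-binding proteins, had 1.16, 0.336 and 3.17 FPKM in SCZ_DA, against 1.82, 1.59 and 1.4 FPKM in SCZ_CA. In YH9 it had 387, 46.1 and 114 FPKM in YH9_DA, against 1.5, 1.43 and 1.31 FPKM in YH9_CA. The YH9 libraries at DA spread widely, the interaction was -7.00, SE 1.34, adjusted p = 0.0183 by edgeR, and the call was lost without YH9_CA replicates 1, 2 or 3 (adjusted p = 0.0505 to 0.0549) and with limma voom weights per group. Before acclimation it had 4.6, 0.589 and 0.782 FPKM in SCZ_NA and 76.7, 207 and 110 FPKM in YH9_NA, and the cultivars did not overlap then either. A putative disease resistance protein (CSS027038, annotated together with CSS027037) had 1.73, 0.669 and 1 FPKM in SCZ_DA, against 1.08, 7.95 and 0.551 FPKM in SCZ_CA. It had 20.7, 18.4 and 12.2 FPKM in YH9_DA, against 1.74, 1.39 and 1.64 FPKM in YH9_CA. Its interaction was -4.90, SE 1.06, adjusted p = 0.0313 by edgeR, and the call was lost in 8 of the 18 fits without 1 library (adjusted p = 0.053 to 0.0794) and in 3 of the 14 other alternatives, and the difference ran between -5.37 and -2.94 over the alternatives. A leucine-rich repeat receptor-like kinase (CSS004958) had 1.73, 1.34 and 1.11 FPKM in SCZ_DA, against 3.88, 9.42 and 1.22 FPKM in SCZ_CA. It had 27.2, 31.2 and 22.7 FPKM in YH9_DA, against 8.76, 7.97 and 10.9 FPKM in YH9_CA. Its interaction was -3.35, SE 0.74, adjusted p = 0.0356 by edgeR, and the call was lost in 8 of the 18 fits without 1 library (adjusted p = 0.0641 to 0.0922) and in 3 of the 14 other alternatives, and the difference ran between -3.76 and -2.40 over the alternatives. The ABC transporter C family member 14 (CSS031986), of a group that carries conjugates into the vacuole, had 4.35, 1.38 and 2.7 FPKM in SCZ_DA, against 22, 10.8 and 5.17 FPKM in SCZ_CA. It had 22.8, 19 and 13.5 FPKM in YH9_DA, against 8.46, 5.7 and 4.25 FPKM in YH9_CA. Its interaction was -3.72, SE 0.76, adjusted p = 0.0252 by edgeR, and the call was lost without SCZ_DA replicates 2 or 3, YH9_CA replicates 2 or 3 or YH9_DA replicates 1 or 2 (adjusted p = 0.0518 to 0.0658).

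DMR6-LIKE OXYGENASE 2 (CSS012105), whose Arabidopsis relatives hydroxylate salicylic acid, had its SCZ_CA libraries above those of SCZ_DA and of both YH9 groups. It had 2.37, 1.24 and 0.45 FPKM in SCZ_DA, against 37.5, 9.95 and 14.5 FPKM in SCZ_CA. It had 9.8, 8.5 and 7.13 FPKM in YH9_DA, against 1.84, 3.29 and 2.04 FPKM in YH9_CA. Its interaction was -5.74, SE 1.11, adjusted p = 0.0195 by edgeR, and the call was lost without SCZ_DA replicate 2 or YH9_CA replicates 1 or 3 (adjusted p = 0.053 to 0.0617). Thaumatin-like protein 1b (CSS031535), a pathogenesis-related protein, had 10.5, 12.2 and 5.57 FPKM in SCZ_DA, against 113, 24.7 and 63.2 FPKM in SCZ_CA. It had 51.8, 82.1 and 78.4 FPKM in YH9_DA, against 50.2, 64.9 and 59.3 FPKM in YH9_CA. Its interaction was -3.16, SE 0.72, adjusted p = 0.0398 by edgeR, and the call was lost in 13 of the 18 fits without 1 library (adjusted p = 0.0526 to 0.104) and with the replicate block and with limma on log2(FPKM + 0.1).

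CBF and DREB factors moved in both directions on rewarming. Of 14 loci tested (of 18 in the table), 3 rose and 6 fell in SCZ, and 1 rose and 8 fell in YH9, with 6 falling in both. None was called in the interaction by edgeR's quasi-likelihood test. An unadjusted p under 0.05 was found at 6, beside 16.5% of all loci. DESeq2 called 4, all positive, beside 800 positive and 1004 negative calls over all 29019 loci. The median interaction of the CBF and DREB list was 2.08, beside -0.02 over all loci, and the single values ran between -3.19 and 4.59. The median over the list was positive in every alternative, at 0.67 with limma on log2(FPKM + 1), 0.96 without SCZ_DA replicate 1 and up to 2.38. A CBF-like locus (CSS018717), one of the master switches of cold-induced genes, had 2.99, 9.02 and 22.5 FPKM in SCZ_DA, against 497, 327 and 198 FPKM in SCZ_CA. In YH9 it had 8.8, 3.1 and 5.32 FPKM in YH9_DA, against 930, 997 and 1100 FPKM in YH9_CA. The changes were -5.03 in SCZ and -7.61 in YH9, and the interaction was 2.58, SE 0.86, adjusted p = 0.141 by edgeR. It ran between 1.59 and 3.04 when 1 library at a time was left out, the lowest without SCZ_DA replicate 3. A further one (CSS002244) had 2.84, 2.96 and 23.4 FPKM in SCZ_DA, against 278, 26.2 and 136 FPKM in SCZ_CA, and 0.656, 0.497 and 0.129 FPKM in YH9_DA, against 33.8, 57.1 and 55.1 FPKM in YH9_CA, with 2.87, SE 1.34, adjusted p = 0.302 by edgeR. This one ran between 1.07, also without SCZ_DA replicate 3, and 3.58. The locus CSS023229 had 0, 0 and 0.0736 FPKM in SCZ_DA, against 39.3, 32.4 and 10.8 FPKM in SCZ_CA. It had 0.0796, 0 and 0 FPKM in YH9_DA, against 4.28, 2.61 and 3.2 FPKM in YH9_CA. Its difference of -3.19 (adjusted p = 0.462 by edgeR) rests on levels at or near 0 in DA and changed sign without YH9_DA replicate 1.

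LEA, dehydrin and other cold-regulated proteins, which protect membranes and enzymes during dehydration, fell at more loci than they rose. Of 22 tested, 1 rose and 8 fell in SCZ, and 12 fell in YH9, 8 of them in both, with a median interaction of 0.24. The LEA locus CSS041102 had 54.7, 88.1 and 136 FPKM in SCZ_DA, against 2580, 2740 and 1700 FPKM in SCZ_CA. It had 33, 37.2 and 39.9 FPKM in YH9_DA, against 3040, 2910 and 2790 FPKM in YH9_CA. Its changes were -4.82 in SCZ and -6.46 in YH9, both without overlap, and its interaction was 1.64, SE 0.44, adjusted p = 0.072 by edgeR, short of the threshold. Among the most abundant transcripts was LEA 3L-1 (CSS015767), with 316, 488 and 1130 FPKM in SCZ_DA, against 5330, 11900 and 8600 FPKM in SCZ_CA. It had 189, 222 and 252 FPKM in YH9_DA, against 1890, 2250 and 2080 FPKM in YH9_CA. Its interaction was -0.55, SE 0.76, adjusted p = 0.79 by edgeR. The one call of the list (4.55%, beside 1.72% of all loci) was the abscisic stress-ripening protein ASR (CSS043404). This is a small hydrophilic protein induced by abscisic acid and drought. It had 172, 303 and 359 FPKM in SCZ_DA, against 121, 18.6 and 47.2 FPKM in SCZ_CA. It had 305, 491 and 551 FPKM in YH9_DA, against 953, 1430 and 865 FPKM in YH9_CA. The interaction was 3.42, SE 0.69, adjusted p = 0.0237 by edgeR, and the call was lost without YH9_CA replicate 2 or YH9_DA replicates 1 or 2 (adjusted p = 0.0609 to 0.0706) and when only the libraries compared set the spread. Fatty acid desaturases, which keep membranes fluid in the cold, fell at 8 of 16 loci in SCZ and at the same 8 in YH9. They had no interaction call by edgeR or DESeq2, and 2 had an unadjusted p under 0.05, beside 16.5% of all loci. Their interaction was above 0 at 3 (18.8%, beside 49.1% of all loci), with a median of -0.50. The omega-3 desaturase CSS038298 fell by 2.25 in SCZ and by 1.91 in YH9 on the log2 scale (interaction -0.34, SE 0.42, adjusted p = 0.756 by edgeR).

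**Figure D4:**
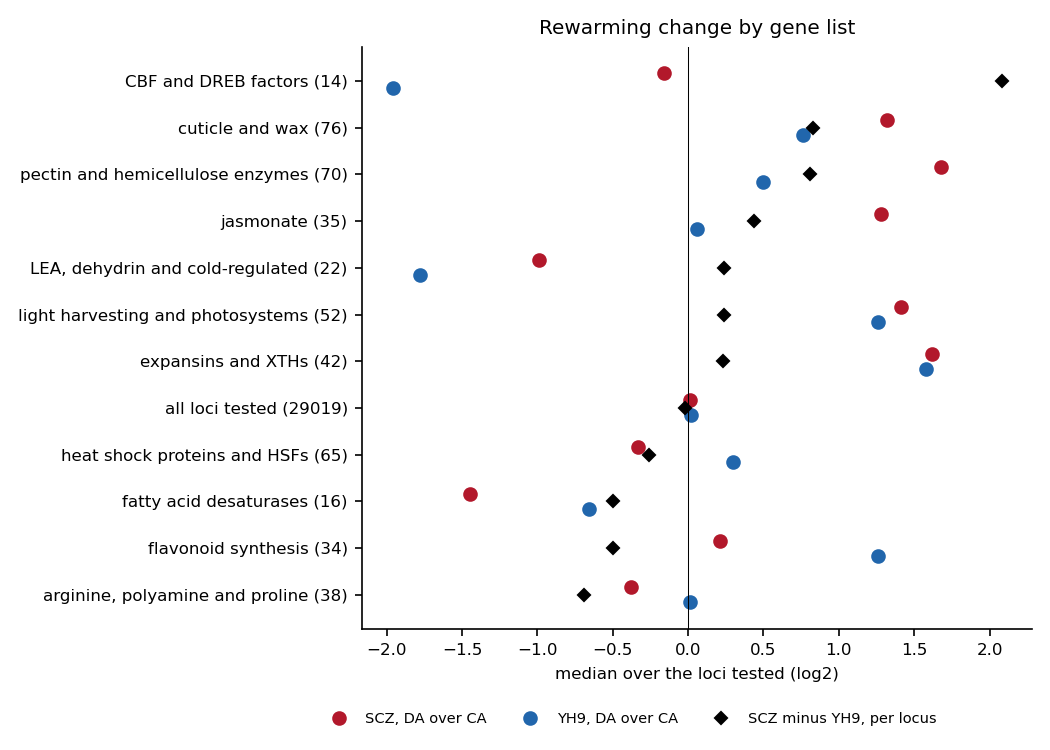
Median log2 change on rewarming over the loci tested in each gene list, with the number of loci in brackets, for SCZ (red), YH9 (blue) and the difference SCZ minus YH9 taken per locus (black). The CBF and DREB list lay farthest to the right at 2.08 and the arginine, polyamine and proline list farthest to the left at -0.69, beside -0.02 over all loci. Medians carry no test.

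Loci of the study's own quantitative PCR panel, among them CBF factors, LEA proteins, desaturases, synthases and a kinase, were included whatever their result. Of 20 such loci tested, 2 were called in the interaction, beside 1.72% of all loci. The kinase SnRK2.8 (CSS028523), of a family activated by osmotic stress, had 23.7, 6.8 and 7.46 FPKM in SCZ_DA, against 151, 214 and 147 FPKM in SCZ_CA. It had 10.9, 5.42 and 7.52 FPKM in YH9_DA, against 10.6, 12.3 and 15.2 FPKM in YH9_CA. SCZ_CA stood far above every other group, the changes were -3.93 in SCZ and -0.83 in YH9, and the interaction was -3.10, SE 0.67, adjusted p = 0.0313 by edgeR. The call was lost in 7 of the 18 fits without 1 library (adjusted p = 0.0589 to 0.089) and with the replicate block. The CBL-interacting protein kinase 18 (CSS039467), which is outside that panel and relays calcium signals, had 2.31, 1.3 and 1.16 FPKM in SCZ_DA, against 10.9, 12.4 and 7.25 FPKM in SCZ_CA. It had 5.51, 3.87 and 2.58 FPKM in YH9_DA, against 5.69, 4.35 and 5.06 FPKM in YH9_CA. Its interaction was -2.35, SE 0.44, adjusted p = 0.0167 by edgeR, and the call was lost without YH9_CA replicate 2 (adjusted p = 0.0513), and the difference ran between -2.74 and -1.80 over the alternatives. A glutathione S-transferase of the panel (CSS020031) had 36.3, 7.7 and 33.9 FPKM in SCZ_DA, against 694, 20.1 and 613 FPKM in SCZ_CA. It had 228, 77.2 and 121 FPKM in YH9_DA, against 28.9, 116 and 105 FPKM in YH9_CA. SCZ_CA replicate 2 stood with the DA libraries there, and the interaction of -4.89 had an adjusted p = 0.0701 by edgeR. Without that library it was -5.44 and called (adjusted p = 0.0109 by edgeR). The putative cold-inducible protein CSS039533 had 2.62, 1.92 and 0.761 FPKM in SCZ_DA, against 131, 247 and 259 FPKM in SCZ_CA, and 4.34, 5.11 and 2.65 FPKM in YH9_DA, against 55.9, 81.7 and 82.1 FPKM in YH9_CA, with changes of -7.12 in SCZ and -4.32 in YH9 and an interaction of -2.79, SE 0.97, adjusted p = 0.16 by edgeR. Beta-amylase 5 (CSS024024) fell in both cultivars (-2.89 in SCZ and -3.99 in YH9), and its interaction of 1.10 had an adjusted p = 0.317 by edgeR. The chloroplast omega-6 desaturase CSS030929 had -0.89 (adjusted p = 0.167 by edgeR). At another glutathione S-transferase (CSS027109), SCZ_CA replicate 2 was far above the rest, with 2.81, 0.775 and 1.25 FPKM in SCZ_DA, against 23.3, 703 and 28.6 FPKM in SCZ_CA. It had 0.807, 0.852 and 0.941 FPKM in YH9_DA, against 19.8, 61.2 and 25.5 FPKM in YH9_CA. Its interaction of -1.92 turned to 1.29 without that library.

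Amino acid genes of the arginine, polyamine and proline list had a median interaction of -0.69, negative in every alternative (-0.82 to -0.23, the last without SCZ_CA replicate 2). Of 38 loci, 27 were at or below 0 and 11 above it (28.9%, beside 49.1% of all loci). An unadjusted p under 0.05 was found at 14, beside 16.5% of all loci. There were 3 calls, all negative (7.89%, beside 1.72% of all loci), including CSS032116, set aside below. The list was drawn up with the study's own interest in these pathways known, so its direction is not independent evidence. Locus CSS005626 encodes delta-pyrroline-5-carboxylate dehydrogenase 1, which takes part in breaking down proline, and had 0.229, 0.144 and 0.126 FPKM in SCZ_DA, against 5.72, 27.7 and 8.34 FPKM in SCZ_CA. In YH9 it had 0.353, 0.297 and 0.329 FPKM in YH9_DA, against 0.922, 0.444 and 0.609 FPKM in YH9_CA. Its interaction was -5.37, SE 1.01, adjusted p = 0.0174 by edgeR, and the call was lost without YH9_CA replicate 2 (adjusted p = 0.0535), and the difference ran between -5.76 and -3.07 over the alternatives. Spermine synthase (CSS036083), the last step of spermine formation and a panel gene, had 7.94, 10.3 and 11.6 FPKM in SCZ_DA, against 17.3, 22.4 and 12.1 FPKM in SCZ_CA. It had 4.33, 4.36 and 4.59 FPKM in YH9_DA, against 3.33, 3.16 and 3.27 FPKM in YH9_CA. Its interaction was -1.26, SE 0.30, adjusted p = 0.0445 by edgeR, and the call was lost in 13 of the 18 fits without 1 library (adjusted p = 0.056 to 0.102) and in 6 of the 14 other alternatives. Pyrroline-5-carboxylate synthetase (CSS022477), the first step of proline formation, had 13.5, 13.5 and 10.1 FPKM in SCZ_DA, against 24.2, 66.1 and 23.6 FPKM in SCZ_CA. It had 19.2, 13.9 and 18.2 FPKM in YH9_DA, against 16.3, 17.1 and 16.7 FPKM in YH9_CA. Its fall was called in SCZ and not in YH9, and the interaction was -1.68, SE 0.46, adjusted p = 0.0757 by edgeR, short of the threshold. Spermidine synthase 1 (CSS012142) fell in both cultivars (-1.28 in SCZ and -1.24 in YH9), and its interaction was -0.04, SE 0.29, adjusted p = 0.978 by edgeR. The sign of so small a value changed in 4 of the fits without 1 library. Further spermine synthase loci of the panel, CSS029019 (-0.92) and CSS037988 (-0.75), arginine decarboxylase CSS043070 (0.39) and N-carbamoylputrescine amidase CSS002648 (0.98) had no call (adjusted p = 0.285, 0.353, 0.911 and 0.821 by edgeR).

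An argininosuccinate synthase locus (CSS032116), of the arginine pathway, also passed the test at -3.28, but its deposited counts and FPKM disagree. The FPKM were 20.9, 19.2 and 10.1 FPKM in SCZ_DA, against 6.38, 5.13 and 4.52 FPKM in SCZ_CA, and 17.8, 14.3 and 21.9 FPKM in YH9_DA, against 3.98, 4.63 and 3.72 FPKM in YH9_CA, higher in DA in both cultivars, whereas the counts fell in SCZ. The ratio of count to FPKM at this locus varied by 3.97 on the log2 scale across libraries and at CSS029169, another argininosuccinate synthase, by 2.18. At the other loci checked, of 30979 in all, it varied by at most 0.196. No call is drawn at these 2 loci, which leaves 2 usable calls in the list. CSS032116 is still counted among the 268 negative calls, the 70 named loci with a call, the 14 loci of the list at an unadjusted p under 0.05 and in its median.

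Photosynthesis genes rose on rewarming in both cultivars. Of 52 loci for light harvesting and the photosystems, 27 rose and 2 fell in SCZ, 29 rose and 2 fell in YH9, and 26 rose in both. The median interaction of 0.24 turned negative (-0.06) without SCZ_CA replicate 2, and the interaction was called at 1 locus (1.92%, beside 1.72% of all loci). The single call, the antenna protein CP26 (CSS032972) of photosystem II, had 983, 930 and 849 FPKM in SCZ_DA, against 101, 42.1 and 123 FPKM in SCZ_CA. It had 322, 523 and 478 FPKM in YH9_DA, against 200, 161 and 165 FPKM in YH9_CA. It had 1190, 1430 and 1430 FPKM in SCZ_NA and 1060, 1000 and 1110 FPKM in YH9_NA. Its interaction was 1.97, SE 0.47, adjusted p = 0.0453 by edgeR, and the call was lost in 15 of the 18 fits without 1 library (adjusted p = 0.0543 to 0.12) and in 4 of the 14 other alternatives.

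Clock and light signalling genes had 2 positive and 1 negative calls among 37 tested (8.11%, beside 1.72% of all loci). Their median interaction was 0.23, with 20 above 0 (54.1%, beside 49.1% of all loci). The protein LHY (CSS036792, 1 of several loci with that name), a morning-phased repressor of the plant clock, had 496, 353 and 181 FPKM in SCZ_DA, against 319, 275 and 222 FPKM in SCZ_CA. It had 528, 526 and 479 FPKM in YH9_DA, against 86.2, 125 and 126 FPKM in YH9_CA. YH9 rose without overlap and SCZ overlapped, for an interaction of -1.88, SE 0.41, adjusted p = 0.034 by edgeR. The pseudo-response regulator APRR5 (CSS005113), which represses LHY in Arabidopsis, had 21.3, 19.2 and 32.8 FPKM in SCZ_DA, against 34, 13.7 and 29.2 FPKM in SCZ_CA. It had 11, 11.4 and 9.95 FPKM in YH9_DA, against 37.4, 37 and 45.5 FPKM in YH9_CA. Its interaction was 1.78, SE 0.43, adjusted p = 0.0468 by edgeR. CONSTANS-LIKE 9 (CSS023835), a light-response regulator, had 5.31, 10.3 and 11.4 FPKM in SCZ_DA, against 0.291, 0.507 and 0.791 FPKM in SCZ_CA, and 5.77, 5.32 and 6.28 FPKM in YH9_DA, against 2.08, 2.68 and 1.94 FPKM in YH9_CA, with 2.61, SE 0.63, adjusted p = 0.05 by edgeR. The LHY call was lost in 8 of the 18 fits without 1 library (adjusted p = 0.0505 to 0.0935) and with the replicate block and when only the libraries compared set the spread. The APRR5 call was lost in 13 of the 18 fits without 1 library (adjusted p = 0.0538 to 0.111) and in 4 of the 14 other alternatives. The CONSTANS-LIKE 9 call was lost in 15 of the 18 fits without 1 library (adjusted p = 0.0514 to 0.119) and in 8 of the 14 other alternatives, and the difference ran between 1.59 and 3.16 over the alternatives. Clock transcripts change with the hour, which is not given, so its part in these differences was not tested.

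The list of enzymes that remodel pectin and hemicellulose in growing walls, drawn from product descriptions, had more positive than negative interactions. Of 70 loci tested (of 130 in the table), 31 rose and 4 fell in SCZ and 15 rose and 4 fell in YH9. The interaction was above 0 at 56 (80.0%, beside 49.1% of all loci), with a median of 0.81, and it was called at 4 positive and 1 negative loci (7.14%, beside 1.72% of all loci). The median was positive in every alternative, at 0.26 without SCZ_DA replicate 2 and 1.25 without SCZ_CA replicate 1. A pectinesterase-like locus (CSS009939), an enzyme that demethylates pectin, had 8.96, 55.6 and 13.7 FPKM in SCZ_DA, against 4.1, 4.89 and 1.35 FPKM in SCZ_CA. It had 3.8, 8.4 and 8.29 FPKM in YH9_DA, against 21.8, 18.8 and 11.6 FPKM in YH9_CA. Its interaction was 4.23, SE 0.95, adjusted p = 0.0374 by edgeR, and the call was lost in 9 of the 18 fits without 1 library (adjusted p = 0.0503 to 0.101) and with limma voom weights per group and when only the libraries compared set the spread. A locus described as a polygalacturonase 1 beta-like protein (CSS028593) is in the list by that description alone, and enzyme activity was not tested. It had 4.83, 39.1 and 1.47 FPKM in SCZ_DA, against 0.0257, 0.0951 and 0.109 FPKM in SCZ_CA. It had 2.12, 2.69 and 3.72 FPKM in YH9_DA, against 1.32, 0.707 and 0.47 FPKM in YH9_CA. Its interaction was 5.65, SE 1.31, adjusted p = 0.0414 by edgeR, and the call was lost in 14 of the 18 fits without 1 library (adjusted p = 0.0524 to 0.112) and in 6 of the 14 other alternatives, and the difference ran between 1.88 and 6.19 over the alternatives. The one negative call, a probable polygalacturonase (CSS030254), had 0.0679, 0.0239 and 0.034 FPKM in SCZ_DA, against 2.37, 18.9 and 0.227 FPKM in SCZ_CA. It had 0.703, 0.621 and 0.9 FPKM in YH9_DA, against 0.554, 0.935 and 1.02 FPKM in YH9_CA. SCZ_CA replicate 2 stood far above the other libraries, and the interaction was -7.21, SE 1.48, adjusted p = 0.0304 by edgeR. Without that library it was -4.68 and still called, and the call was lost in 8 of the 18 fits without 1 library (adjusted p = 0.066 to 0.0899) and in 5 of the 14 other alternatives, and the difference ran between -7.76 and -1.99 over the alternatives. Expansins and xyloglucan-modifying enzymes, which loosen walls, rose at 21 of 42 loci in each cultivar and had no call by edgeR. An unadjusted p under 0.05 was found at 7, beside 16.5% of all loci. DESeq2 called 2, beside 800 positive and 1004 negative calls over all 29019 loci.

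Cuticle and wax genes also had more positive than negative interactions, with 30 of 76 up in SCZ and 13 up in YH9. Their median interaction was 0.83 and positive in every alternative, at 0.09 without SCZ_DA replicate 2 and up to 1.01. The interaction was above 0 at 55 (72.4%, beside 49.1% of all loci) and called at 1 (1.32%, beside 1.72% of all loci). Their only call was ECERIFERUM 3 (CSS019526), an enzyme of wax alkane formation, with 4.18, 9.36 and 2.45 FPKM in SCZ_DA, against 1.62, 0.74 and 0.673 FPKM in SCZ_CA. It had 3.57, 7.01 and 5.05 FPKM in YH9_DA, against 8.88, 6.03 and 5.5 FPKM in YH9_CA. Its interaction was 2.74, SE 0.66, adjusted p = 0.0473 by edgeR, and the call was lost in 15 of the 18 fits without 1 library (adjusted p = 0.0503 to 0.124) and in 7 of the 14 other alternatives, and the difference ran between 1.88 and 3.17 over the alternatives. Markers of xylem and secondary walls moved with these lists. All 10 tested had an interaction above 0 (median 1.24, none called by edgeR or DESeq2 and none at an unadjusted p under 0.05), and their summed level was 17.2 to 32.9 FPKM in SCZ_DA and 1.91 to 16.9 FPKM in SCZ_CA, against 37.2 to 88.4 FPKM in YH9_DA and 11.7 to 63.3 FPKM in YH9_CA. Markers of guard cells and epidermis had 7 of 8 above 0, with sums of 66.7 to 117 FPKM in SCZ_DA and 55.7 to 135 FPKM in SCZ_CA, against 88.7 to 109 FPKM in YH9_DA and 118 to 146 FPKM in YH9_CA. The part of cell-type makeup in the wall and cuticle results was not tested, and in whole leaves fewer cells of a type and less RNA per cell cannot be told apart.

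The sugar, starch and aquaporin lists each had 1 call, at 1.61%, 2.78% and 3.12% of the loci tested, beside 1.72% of all loci. Sucrose, raffinose, trehalose and sugar transport genes had 1 negative call among 62, the tonoplast transporter described above, and their median interaction was 0.19. Beta-amylase 2 (CSS046643), of the starch-degrading family, had 3.02, 2.69 and 2.03 FPKM in SCZ_DA, against 1.7, 1.29 and 0.925 FPKM in SCZ_CA. It had 0.728, 1.07 and 0.889 FPKM in YH9_DA, against 4.94, 1.89 and 3.01 FPKM in YH9_CA. Its interaction was 2.83, SE 0.65, adjusted p = 0.0414 by edgeR, and the call was lost in 11 of the 18 fits without 1 library (adjusted p = 0.0529 to 0.112) and in 4 of the 14 other alternatives, and the difference ran between 1.75 and 3.10 over the alternatives. An aquaporin (CSS046490), a membrane water channel, had 21.1, 53.3 and 25.4 FPKM in SCZ_DA, against 3.69, 6.68 and 4.04 FPKM in SCZ_CA. It had 84.4, 101 and 135 FPKM in YH9_DA, against 68.4, 124 and 93.4 FPKM in YH9_CA. Its interaction was 2.56, SE 0.57, adjusted p = 0.0347 by edgeR, and the call was lost in 9 of the 18 fits without 1 library (adjusted p = 0.0515 to 0.0986) and with limma voom weights per group.

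Jasmonate genes, which relay wounding and stress, rose at 16 of 35 loci in SCZ and at 9 in YH9. The interaction was called at 1 positive and 2 negative loci (8.57%, beside 1.72% of all loci), all described as lipoxygenases. Some lipoxygenases take the first step of jasmonate formation, but the negative loci are described only as lipoxygenase. The chloroplast 13-lipoxygenase CSS021042 had 38.5, 53.8 and 63.8 FPKM in SCZ_DA, against 16.2, 26.3 and 12.2 FPKM in SCZ_CA. It had 18.4, 16.8 and 20.4 FPKM in YH9_DA, against 29.2, 39.6 and 25.6 FPKM in YH9_CA. It rose in SCZ and was lower in YH9_DA without overlap, for an interaction of 2.26, SE 0.46, adjusted p = 0.0254 by edgeR. The lipoxygenases of the opposite sign rose in both cultivars, more in YH9. One (CSS009234, annotated together with CSS009233) had 3.7, 3 and 3.25 FPKM in SCZ_DA, against 0.847, 0.667 and 0.985 FPKM in SCZ_CA, and 28.1, 43.1 and 57 FPKM in YH9_DA, against 1.37, 2.11 and 1.71 FPKM in YH9_CA, with an interaction of -2.70, SE 0.56, adjusted p = 0.0262 by edgeR. The other (CSS048982) had 3.09, 2.23 and 2.38 FPKM in SCZ_DA, against 0.6, 0.631 and 0.715 FPKM in SCZ_CA, and 17.4, 20.8 and 27.5 FPKM in YH9_DA, against 0.76, 1.47 and 1.12 FPKM in YH9_CA, with -2.36, SE 0.51, adjusted p = 0.0332 by edgeR. The call of CSS021042 was lost in 7 of the 18 fits without 1 library (adjusted p = 0.0506 to 0.0734). That of CSS009234 was lost without SCZ_DA replicates 2 or 3, YH9_CA replicates 1 or 3 or YH9_DA replicates 2 or 3 (adjusted p = 0.0518 to 0.0768) and with limma voom weights per group. That of CSS048982 was lost in 8 of the 18 fits without 1 library (adjusted p = 0.0517 to 0.0899) and with limma voom weights per group.

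Immune receptors had 5 positive and 5 negative calls among 208 tested (4.81%), and pathogenesis-related proteins with the germins 4 positive and 2 negative among 104 (5.77%), beside 1.72% of all loci. The RPP13-like protein 1 on Scaffold1178 (CSS018001) had 0.421, 0.348 and 0.224 FPKM in SCZ_DA, against 0.0459, 0.0318 and 0.0114 FPKM in SCZ_CA. It had 2.76, 3.2 and 2.66 FPKM in YH9_DA, against 2.66, 2.13 and 2.71 FPKM in YH9_CA. Its interaction was 3.20, SE 0.45, adjusted p = 0.00356 by edgeR, and the call was lost in 3 of the 14 other alternatives, and the difference ran between 0.22 and 3.56 over the alternatives. Another RPP13-like locus (CSS053461) had 2.37, 2.16 and 3.76 FPKM in SCZ_DA, against 5.7, 4.09 and 4.28 FPKM in SCZ_CA. It had 1.93, 2.06 and 2.33 FPKM in YH9_DA, against 13.8, 12.4 and 10.3 FPKM in YH9_CA. It was lower in DA without overlap in both cultivars, with changes of -0.94 in SCZ and -2.68 in YH9, for an interaction of 1.75, SE 0.38, adjusted p = 0.0324 by edgeR, and the call was lost without SCZ_DA replicate 3, YH9_CA replicates 1 or 2 or YH9_DA replicates 1, 2 or 3 (adjusted p = 0.0597 to 0.0892). The NBS-LRR protein ARGH35 (CSS020069), of the same receptor class, had 9.15, 10.0 and 9.86 FPKM in SCZ_DA, against 7.33, 7.16 and 6.56 FPKM in SCZ_CA, and 1.09, 1.44 and 1.13 FPKM in YH9_DA, against 0.357, 0.372 and 0.368 FPKM in YH9_CA, with -1.31, SE 0.30, adjusted p = 0.0406 by edgeR, and the call was lost in 12 of the 18 fits without 1 library (adjusted p = 0.0532 to 0.106) and in 4 of the 14 other alternatives, and the difference ran between -1.39 and -0.28 over the alternatives. The 2 called glutathione S-transferases, enzymes that conjugate reactive compounds, were both positive among 43 tested (4.65%). One locus (CSS047924, annotated together with CSS047925) had 44, 49.8 and 61.3 FPKM in SCZ_DA, against 10.7, 16.3 and 10.3 FPKM in SCZ_CA, and 46.3, 44.9 and 59.8 FPKM in YH9_DA, against 35.7, 38 and 36.3 FPKM in YH9_CA, with an interaction of 1.57, SE 0.32, adjusted p = 0.0256 by edgeR. The other (CSS021041) had 31.1, 41.1 and 19.8 FPKM in SCZ_DA, against 10.3, 6.41 and 8.99 FPKM in SCZ_CA, and 20.2, 17.9 and 27.3 FPKM in YH9_DA, against 23.9, 41.2 and 25.9 FPKM in YH9_CA, with 2.26, SE 0.48, adjusted p = 0.0295 by edgeR. The call of CSS047924 was lost without SCZ_DA replicate 3, YH9_CA replicates 1 or 2 or YH9_DA replicates 1 or 2 (adjusted p = 0.0524 to 0.0769), and that of CSS021041 was lost without SCZ_DA replicate 2, YH9_CA replicate 2 or YH9_DA replicates 1 or 2 (adjusted p = 0.073 to 0.0862) and with the replicate block and with limma voom weights per group. Heat shock proteins and their factors had 1 negative call among 65 (1.54%, beside 1.72% of all loci). It was a mitochondrial HSP70 (CSS005429), a chaperone of protein import, with 31.2, 38.5 and 27.3 FPKM in SCZ_DA, against 200, 289 and 182 FPKM in SCZ_CA. It had 35.2, 35.3 and 36.1 FPKM in YH9_DA, against 98.7, 105 and 122 FPKM in YH9_CA. It fell in both cultivars and their DA libraries overlapped, for an interaction of -1.22, SE 0.26, adjusted p = 0.0288 by edgeR, and the call was lost without SCZ_DA replicate 3, YH9_CA replicates 1 or 2 or YH9_DA replicates 1, 2 or 3 (adjusted p = 0.0586 to 0.0835) and in 3 of the 14 other alternatives.

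Flavonoid genes, which in tea lead to the catechins, had a median interaction of -0.50. It was negative in every alternative, at -1.21 without SCZ_DA replicate 1 and -0.08 without SCZ_CA replicate 2. An unadjusted p under 0.05 was found at 12 of 34, beside 16.5% of all loci. The one call (2.94%, beside 1.72% of all loci) was leucoanthocyanidin reductase (CSS008513), which forms catechin. It had 2.74, 1.74 and 2.07 FPKM in SCZ_DA, against 0.355, 1.62 and 0.385 FPKM in SCZ_CA. It had 56.3, 8.8 and 19.7 FPKM in YH9_DA, against 0.411, 0.488 and 0.338 FPKM in YH9_CA. It was higher in DA in both cultivars without overlap, the rise was called only in YH9, and the interaction was -4.59, SE 0.99, adjusted p = 0.0319 by edgeR. The call was lost in 8 of the 18 fits without 1 library (adjusted p = 0.053 to 0.0863) and in 4 of the 14 other alternatives, and the difference ran between -5.01 and -3.11 over the alternatives. The flavonoid 3',5'-hydroxylase CSS002582, a panel gene, rose in both cultivars, with 326, 283 and 273 FPKM in SCZ_DA, against 7.77, 16.8 and 7.78 FPKM in SCZ_CA, and 189, 335 and 342 FPKM in YH9_DA, against 8.14, 19.3 and 16.4 FPKM in YH9_CA (interaction 0.42, SE 0.61, adjusted p = 0.796 by edgeR). Theobromine synthase (CSS004818), an N-methyltransferase of the caffeine pathway, had 9.58, 7.78 and 6.59 FPKM in SCZ_DA, against 2.62, 0.684 and 1.08 FPKM in SCZ_CA. It had 3.12, 4.07 and 4.06 FPKM in YH9_DA, against 4.78, 4.6 and 3.2 FPKM in YH9_CA. Its interaction was 2.60, SE 0.59, adjusted p = 0.039 by edgeR, and the call was lost in 11 of the 18 fits without 1 library (adjusted p = 0.0505 to 0.106) and with the replicate block and when only the libraries compared set the spread, and the difference ran between 2.06 and 3.22 over the alternatives.

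The phenylpropanoid and lignin list had 4 negative and no positive calls among 107 (3.74%, beside 1.72% of all loci). Cinnamyl alcohol dehydrogenase 3 (CSS023490), which reduces the aldehyde precursors of lignin, had 14.3, 11.2 and 12.9 FPKM in SCZ_DA, against 41.8, 28.1 and 29.9 FPKM in SCZ_CA. It had 0.564, 0.663 and 0.511 FPKM in YH9_DA, against 0.22, 0.3 and 0.468 FPKM in YH9_CA. Its interaction was -2.19, SE 0.38, adjusted p = 0.0119 by edgeR, and the call held in all 32 alternatives. Cinnamoyl-CoA reductase 1 (CSS013975) had 10.3, 7.46 and 11.1 FPKM in SCZ_DA, against 8.71, 8.1 and 11 FPKM in SCZ_CA. It had 6.38, 4.6 and 5.54 FPKM in YH9_DA, against 1.87, 1.38 and 1.33 FPKM in YH9_CA. Its interaction was -1.82, SE 0.39, adjusted p = 0.0302 by edgeR, and the call was lost in 7 of the 18 fits without 1 library (adjusted p = 0.0516 to 0.0813) and when only the libraries compared set the spread, and the difference ran between -2.01 and -1.32 over the alternatives. The other 2 calls were laccase-7-like loci (CSS042942 and CSS042944), which share their name and their pattern, so that reads of the copies may not be told apart. CSS042942 had 0, 0 and 0.0464 FPKM in SCZ_DA, against 1.8, 22.1 and 0.286 FPKM in SCZ_CA, and 7.97, 2.51 and 0.955 FPKM in YH9_DA, against 0.557, 0.654 and 0.381 FPKM in YH9_CA. SCZ_CA replicate 2 was the highest, and SCZ_DA held at most 6 estimated counts per library, so the size of the difference (-11.67, SE 2.48, adjusted p = 0.0291 by edgeR) depends on how low counts are handled. The call was lost in 8 of the 18 fits without 1 library (adjusted p = 0.0539 to 0.0884) and in 4 of the 14 other alternatives, and the difference ran between -15.86 and -3.48 over the alternatives. Without SCZ_CA replicate 2 it was -8.67 at CSS042942, still called, and -8.85 at CSS042944, no longer called (adjusted p = 0.0771 by edgeR).

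UDP-glycosyltransferases, which attach sugars to hormones, flavonoids and volatile compounds, recurred among the loci that moved in opposite directions. Chosen after their values were seen, the 129 such loci tested had 11 positive and 3 negative calls (10.9%, beside 1.72% of all loci), and 8 of these rose in one cultivar and fell in the other, beside 75 of the 499 over all loci. A UDP-glycosyltransferase 91Q1 (CSS028284) had 2.38, 3.13 and 6.17 FPKM in SCZ_DA, against 2.19, 0.65 and 1.61 FPKM in SCZ_CA. It had 2.33, 3.23 and 2.05 FPKM in YH9_DA, against 22.7, 13.8 and 14.9 FPKM in YH9_CA. Its interaction was 4.12, SE 0.65, adjusted p = 0.00716 by edgeR. UDP-glycosyltransferase 75L13 (CSS011345), on Scaffold535, had 2.47, 1.41 and 0.747 FPKM in SCZ_DA, against 0.0507, 0 and 0.0448 FPKM in SCZ_CA. It had 0.079, 0.102 and 0.126 FPKM in YH9_DA, against 0.644, 0.594 and 0.82 FPKM in YH9_CA. Its interaction was 8.07, SE 1.44, adjusted p = 0.0131 by edgeR, and both calls held in all 32 alternatives, although on log2(FPKM + 1) the difference of 75L13 was 1.86. Further copies of 91Q1, CSS023225 (5.78) and CSS028992 (4.75), and UDP-glycosyltransferase 72B23 (CSS004560, 5.50) also rose in SCZ and fell in YH9. The SCZ libraries of the stages overlapped at CSS023225 and CSS028992. CSS004560 had 0.0326, 0 and 0.0271 FPKM in YH9_DA, against 0.0815, 0.446 and 0.0753 FPKM in YH9_CA. With at most 4 estimated counts per library in YH9_DA, the size of its difference depends on how low counts are handled. The call of CSS023225 was lost with limma on log2(FPKM + 1), and the difference ran between 1.64 and 6.46 over the alternatives. That of CSS028992 was lost in 7 of the 18 fits without 1 library (adjusted p = 0.0513 to 0.0846) and in 3 of the 14 other alternatives, and the difference ran between 2.24 and 5.21 over the alternatives. That of CSS004560 was lost without SCZ_DA replicate 2, YH9_CA replicate 2 or YH9_DA replicates 1, 2 or 3 (adjusted p = 0.0683 to 0.1) and with the replicate block and when only the libraries compared set the spread, and the difference ran between 2.01 and 6.22 over the alternatives. CSS023225 and CSS028992 had at most 3.89 FPKM in SCZ_DA, and reads shared between copies could not be told apart.

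Among the transcription factor families, NAC factors had 1 positive and 1 negative call among 40 (5.0%, beside 1.72% of all loci). The negative one, NAC53 (CSS012967), had 44, 49.6 and 50.0 FPKM in SCZ_DA, against 113, 89.8 and 63.9 FPKM in SCZ_CA. It had 60.6, 48.9 and 53.3 FPKM in YH9_DA, against 52.7, 39.7 and 42.3 FPKM in YH9_CA. Its interaction was -1.18, SE 0.27, adjusted p = 0.0405 by edgeR, and the call was lost in 13 of the 18 fits without 1 library (adjusted p = 0.0512 to 0.105) and in 3 of the 14 other alternatives. MYB factors had 1 positive among 79 (1.27%), a myb-related protein (CSS017972). This locus had 15.1, 37.8 and 12 FPKM in SCZ_DA, against 1.98, 2.62 and 2.13 FPKM in SCZ_CA. It had 21, 21.1 and 22 FPKM in YH9_DA, against 11.3, 8.9 and 8.78 FPKM in YH9_CA. It rose in both cultivars and their DA libraries overlapped, for an interaction of 2.06, SE 0.48, adjusted p = 0.042 by edgeR, and the call was lost in 12 of the 18 fits without 1 library (adjusted p = 0.052 to 0.107) and in 6 of the 14 other alternatives, and the difference ran between 1.44 and 2.33 over the alternatives. WRKY factors had none among 54 by edgeR's quasi-likelihood test (12 at an unadjusted p under 0.05, 5 by DESeq2). Ethylene response factors outside the CBF group had none among 57 (12 and 4 by the same measures), although 22 fell in SCZ and 20 in YH9. Over all 29019 loci, these measures gave 16.5% at an unadjusted p under 0.05, and 800 positive and 1004 negative calls by DESeq2.

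The lists that follow had no call by edgeR's quasi-likelihood test. Over all 29019 loci, 16.5% had an unadjusted p under 0.05, and DESeq2 called 800 positive and 1004 negative. Cytosolic ribosomal proteins had 7 of 136 at an unadjusted p under 0.05 and 2 calls by DESeq2. RNA helicases and cold-shock RNA-binding proteins had 8 of 85 and 4 calls. The abscisic acid list had 5 of 37 and 3 calls, and gibberellin 6 of 23 and 1 call. Antioxidant enzymes had 5 of 38 and 2 calls, class III peroxidases 4 of 30 and 1 call, and terpene synthesis 3 of 20 and 1 call. Chlorophyll genes had 5 of 28 and 2 calls, and senescence and autophagy genes 7 of 51 and 2 calls. Read against the 1.72% of all loci called, the smaller of these lists would hold fewer than 1 call at the background share.

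How many loci were called depended on single libraries more than on the scaling. Leaving out 1 library at a time gave 77 to 376 positive and 95 to 392 negative calls, the fewest positive without YH9_DA replicate 2 and the fewest negative without YH9_CA replicate 1. No called locus changed sign in any of these 18 fits, whereas 7 did with limma on log2(FPKM + 1) and 1 with limma on log2(FPKM + 0.1). Of the 70 named loci with a call, 17 kept it in all 32 alternatives and 24 lost it in more than 10. Of the 32, 1 only dropped the fold limit from the same edgeR fit and so could not end a call. The 17 are the polyol transporter, NRT1/PTR FAMILY 3.1, 3 germin-like loci, the RPP13-like and G-type lectin receptors, UDP-glycosyltransferases 91Q1 (CSS028284), 75L13 and 89A2-like, the glycosyltransferases CSS005827 and CSS026887, the WEE1-like kinase, the F-box protein CSS008374, the EamA-like transporter, the tonoplast monosaccharide transporter and cinnamyl alcohol dehydrogenase 3.

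**Figure D5:**
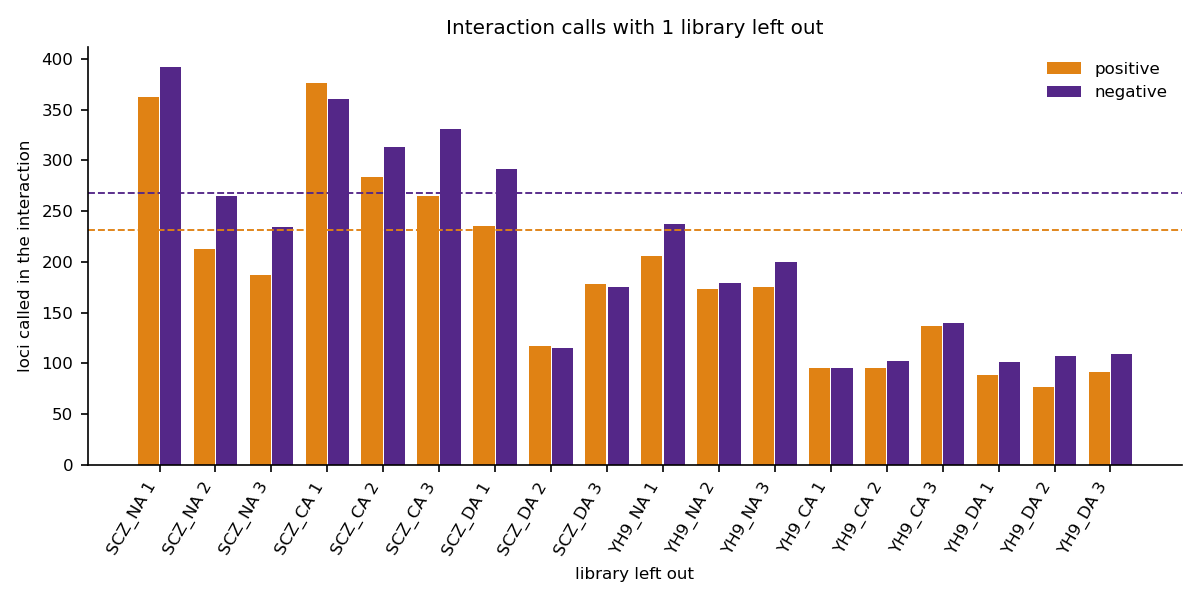
Number of loci with a positive (orange) and negative (purple) interaction call after leaving out the library named on the horizontal axis, with dashed lines at the 231 positive and 268 negative calls from all libraries. Leaving out a YH9_CA or YH9_DA library gave bars between 77 and 140, leaving out SCZ_DA replicate 2 gave 117 and 115, and leaving out SCZ_CA replicate 1 or SCZ_NA replicate 1 the highest.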

How the data were processed

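Each cultivar went through 2 independent experiments, and which library came from which is not given in the sources used here. Leaf mRNA libraries were made with strand marking and molecular identifiers, per the labels. The submitters' processing notes name cutadapt 1.9, HISAT2 2.2.1, StringTie 2.1.6, UMI-tools, edgeR and DESeq2, and a genome build label that does not match tea. The authors deposited estimated counts and FPKM (scaled to locus length and library size) for 41021 loci in 18 libraries. The program that wrote the counts is not given in the sources used here, and 1706 loci tested share a gene name with another.

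Estimated counts, rounded to whole numbers, were fitted with edgeR 4.0.16 (TMM factors, 1 mean per group over all 18 libraries, quasi-likelihood test) in R 4.3.3, with Benjamini-Hochberg adjustment over the 29019 loci with at least 1 FPKM in at least 3 libraries. Calls needed a difference of 2-fold or more with an adjusted p under 0.05. Totals of 47291392 to 78305612 per library are of estimated counts and exceed the numbers of reads listed by the study, so read depth and counting precision cannot be taken from them. With these counts divided by 4, 234 positive and 246 negative interactions were called. The alternatives used limma 3.58.1 and DESeq2 1.42.0 among others. Same-numbered libraries were not paired, and the correlations of their deviations, given below, cannot exclude a pairing. FPKM served for the values shown.

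Named loci were the 12 largest positive and 12 largest negative called differences with a product description, a mean of at least 10 FPKM in 1 of the 4 groups and no overlap of stages in 1 cultivar; the 10 smallest p-values; up to 4 abundant calls per list; up to 8 loci called in opposite directions; and the study's PCR genes. The 40 lists and the comparison were chosen with earlier results of these data known, and patterns in the lists were adjusted by membership after the table was seen.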

Additional observations from a re-analysis of the deposited data

Results flagged for a closer look

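By the test of the difference itself, the rewarming change was higher in SCZ than in YH9 at 231 loci and lower at 268. The 17 named loci that kept the call in all 32 alternatives are set out here with their log2 difference, SCZ minus YH9, from edgeR's fit. The positive ones were UDP-glycosyltransferase 75L13 (CSS011345) at 8.07, the polyol transporter CSS012219 at 4.15, UDP-glycosyltransferase 91Q1 (CSS028284) at 4.12, the germin-like loci CSS001294 at 3.31, CSS019483 at 3.22 and CSS002110 at 2.65, NRT1/PTR FAMILY 3.1 (CSS052741) at 2.92, the G-type lectin receptor kinase CSS022147 at 2.87 and the RPP13-like protein CSS019434 at 2.75. The negative ones were the glycosyltransferases CSS026887 at -4.52 and CSS005827 at -3.94, the EamA-like transporter CSS046123 at -4.00, the 89A2-like glycosyltransferase CSS041987 at -3.46, the WEE1-like kinase CSS021988 at -3.14, the F-box protein CSS008374 at -2.24, cinnamyl alcohol dehydrogenase 3 (CSS023490) at -2.19 and the tonoplast monosaccharide transporter CSS030704 at -1.49. At CSS011345, SCZ_CA held at most 9 estimated counts per library, so the size of its difference depends on how low counts are handled.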

How the results depend on the processing

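With the replicate number as a block the interaction had 133 positive and 152 negative calls. Deviations of same-numbered libraries had correlations of -0.0898 to 0.112, beside -0.145 to 0.104 for differently numbered ones. Between SCZ_DA and SCZ_CA, same-numbered libraries had 0.0624, 0.101 and 0.0995, and differently numbered ones -0.145 to 0.0517. With 3 libraries a group, such values cannot exclude a pairing. DESeq2 called 800 positive and 1004 negative, and limma on log2(FPKM + 1) called 776 and 848. On log2(FPKM + 0.1), limma called 443 positive, where 53.3% of the calls were positive, beside 46.3% in edgeR. With limma voom weights per group, 165 positive and 189 negative were called, including 125 of the 231 and 169 of the 268. When only the libraries compared set the spread, 166 and 183 were called, including 129 and 149 of the same loci. Without 1 library, the counts ran between 77 and 376 positive, 95 and 392 negative, 7418 and 8772 for SCZ_DA vs SCZ_CA, 5519 and 7447 for YH9_DA vs YH9_CA, 5715 and 7471 for SCZ_DA vs YH9_DA, and 6656 and 8316 for SCZ_CA vs YH9_CA. When only the libraries compared set the spread, SCZ_DA vs SCZ_CA had 5225 calls. Restricted to loci with a gene name, fewer loci were tested, and SCZ_DA vs YH9_DA had 4190 and SCZ_CA vs YH9_CA 5238 calls. The cause of the other shifts was not tested. Among loci without a call, the sign turned at CSS002648 (-0.39 with limma on log2(FPKM + 1)), CSS043070 (-0.15 without SCZ_CA replicate 1, -0.21 without SCZ_DA replicate 2), CSS012142 (0.14 without SCZ_CA replicate 2 or SCZ_DA replicate 1, 0 without SCZ_DA replicate 2, 0.03 without YH9_CA replicate 2), CSS027109 (1.29 without SCZ_CA replicate 2) and CSS023229 (0.73 without YH9_DA replicate 1). Over the fits without 1 library, these ran between -0.21 and 1.99 at CSS043070, -0.31 and 0.14 at CSS012142, -2.60 and 1.29 at CSS027109, and -7.14 and 0.73 at CSS023229. Of 2816 values of named loci, 2251 kept direction and side of the threshold, 545 fell short of it, 11 newly passed and 9 changed sign.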
